A study of Homo sapiens with 6 samples.

Results

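The transcripts of the 4 platelet-derived growth factor (PDGF) ligands PDGFA, PDGFB, PDGFC and PDGFD, of the 2 receptor kinases PDGFRA and PDGFRB, and of the receptor-like gene PDGFRL were read from HuCCT1 cells with and without a THY1 lentivirus. These 7 genes were taken by symbol from a table of 20811 genes. HuCCT1 is a human intrahepatic cholangiocarcinoma (bile duct cancer) cell line. HuCCT1/CD90- cells carried the Lenti-CMV-GFP-2A-Puro-Blank virus and HuCCT1/CD90+ cells carried the human THY1-CMV-GFP virus, both given at an MOI of 40, so that both lines carried a CMV-driven GFP virus and grew in the same serum-containing RPMI medium. THY1 encodes the surface protein CD90, and the study asked what its increase changes in these cells. Each line gave 3 libraries, and whether they come from separate cultures is not given in the labels, so p-values measure the spread between these libraries, which may be technical. The labels name 1 transduced line for each virus and do not say whether it was cloned or sorted, so the THY1 virus and any other difference between the lines cannot be told apart.

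PDGF ligands are secreted dimers that bring 2 receptor chains together and so switch on their tyrosine kinases. PDGF-A and PDGF-B are cut in the secretory pathway by furin-like convertases. PDGF-C and PDGF-D are released with a CUB domain that an extracellular protease has to remove before the factor can bind. In liver and bile duct tumours the receptors are best known from fibroblasts, stellate cells and pericytes of the stroma, to which tumour cells can send the ligands.

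The libraries held 8587634 to 10551516 reads on genes, and 3 reads, used as the detection floor, corresponded to 0.284 to 0.349 RPM, which are reads scaled to a fixed total in each library. THY1 had 0, 1 and 0 reads in HuCCT1/CD90- and 435, 445 and 680 reads in HuCCT1/CD90+, as labelled. The biliary keratin genes KRT7 and KRT19 were abundant in both lines, with means of 3430 and 3230 RPM in HuCCT1/CD90- against 3660 and 4150 RPM in HuCCT1/CD90+. Over all genes, limma on log2(RPM + 1) gave 18.9% with an adjusted p of at most 0.05, of which 9.41% of all genes were higher and 9.52% lower in HuCCT1/CD90+. Of the 7 PDGF genes, 2 were higher (PDGFB and PDGFD), 1 was lower (PDGFRB) and 4 did not pass, 3 of 7 against 18.9%. At the threshold the study used (a fold change of 1.5 and an unadjusted p of at most 0.05) 3 of the 7 passed, against 20.1% of all genes and 31.7% of the 12062 genes that averaged 1 RPM or more. In these better-read genes limma gave calls in 29.4%, with 14.4% higher and 15.0% lower. Weakly read genes thus lower the share over the whole table. When the replicate number entered the fit as a block, 3 of the 7 passed (PDGFB, PDGFC and PDGFRB), against 13.1% of all genes and 21.0% of the better-read ones. Reads were not tagged as single molecules, so intervals on reads and floors cover counting error only. Each gene was read over 1 amplicon whose place in the transcript is not known, so levels were compared between lines and not between genes.

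**Figure D1:**
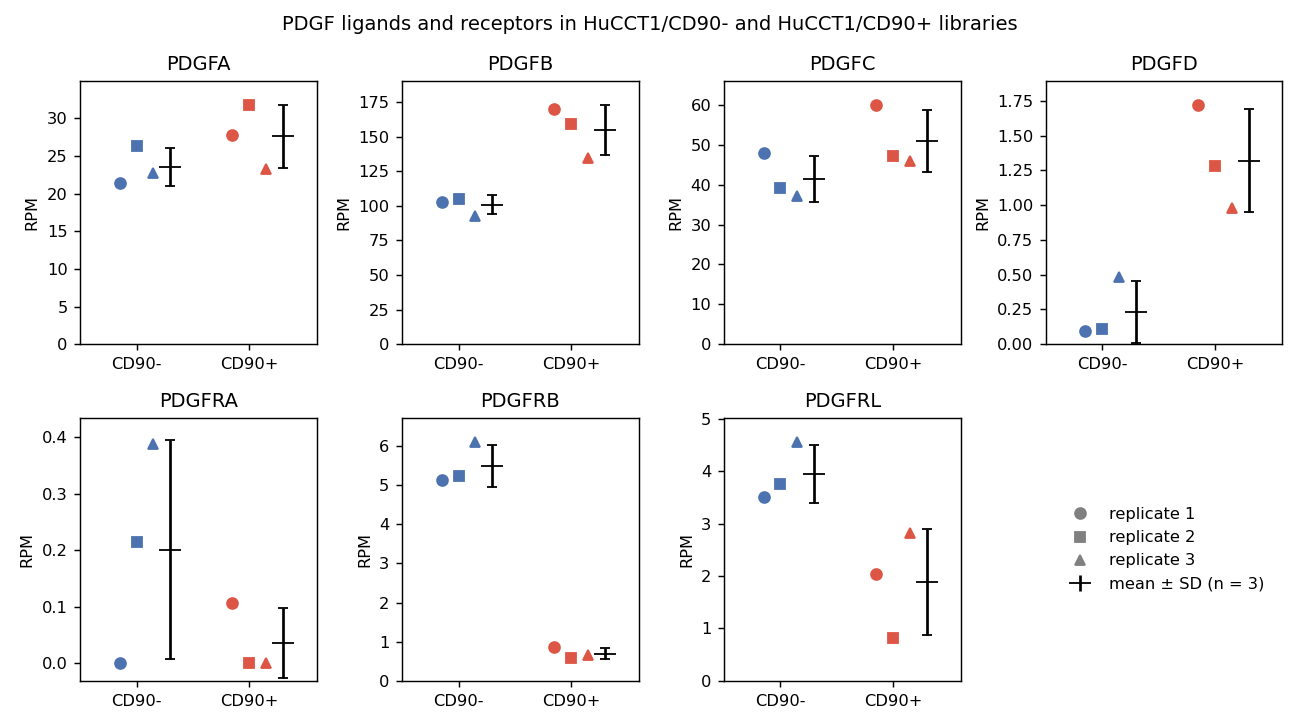
RPM (y axis, a separate scale in each panel) of the 7 PDGF genes in the 3 HuCCT1/CD90- (blue) and 3 HuCCT1/CD90+ (red) libraries, with the marker shape giving the replicate number and the black bar the mean ± SD (n = 3). The lines do not overlap for PDGFB, PDGFD, PDGFRB and PDGFRL, and PDGFRB shows the widest gap relative to its spread, with means of 5.49 and 0.697 RPM.

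PDGFRB, the receptor chain that binds PDGF-B and PDGF-D homodimers, carried the largest fold change of the family in these cells. GENCODE 29 places it on the minus strand of chromosome 5 (GRCh38), between 150113837 and 150155872. The bases just upstream of its annotated transcripts, at chr5:150155873-150156095 on the minus strand of GRCh38.p14 (RefSeq), are shown because this promoter belongs to the member that moved most, and the capitals mark the motifs found by the search.
PDGFRB upstream: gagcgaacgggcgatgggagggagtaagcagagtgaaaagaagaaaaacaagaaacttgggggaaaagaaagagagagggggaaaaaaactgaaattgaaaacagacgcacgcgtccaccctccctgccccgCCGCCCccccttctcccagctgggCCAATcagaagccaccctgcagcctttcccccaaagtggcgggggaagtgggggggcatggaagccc
The printed 223 bases end 27 bases before the RefSeq start, from which positions are counted, because the GENCODE 29 gene begins right after them. They were searched on both strands for CCAAT (the box bound by NF-Y), GGGCGG (the GC box bound by Sp factors), CAGGTG (an E-box of the kind bound by ZEB and Snail repressors) and TATAA. One CCAAT box begins 94 bases before the RefSeq start and one GC box, on the other strand, begins 118 bases before it, and the matches do not overlap. CAGGTG and TATAA are not in this window. Among 34786 distinct promoter windows of the same length, 30.1% hold CCAAT, 39.2% the GC box, 16.1% CAGGTG and 15.7% TATAA, so neither match is rare.

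In HuCCT1/CD90- the PDGFRB level was 5.12, 5.24 and 6.11 RPM, from 54, 49 and 63 reads. In HuCCT1/CD90+ it was 0.858, 0.582 and 0.651 RPM, from 8, 5 and 6 reads. Every HuCCT1/CD90+ library thus stood above the floor of 3 reads but well below every HuCCT1/CD90- library. The mean fell from 5.49 ± 0.541 to 0.697 ± 0.144 RPM (SD, n = 3 each), which is 7.88-fold. Pooled over the libraries, 166 reads stood against 19, a ratio of 7.87 with a 95% exact counting interval from 4.88 to 13.4. On log2(RPM + 1), which understates the change of weakly read genes, the log2 fold change was -1.94 (standard error 0.09, 95% interval from -2.18 to -1.69, adjusted p = 0.00099 from limma). A fall of at least this size was seen in 329 genes, 1.58% of the table and 2.73% of the genes that averaged 1 RPM or more. In bulk RNA, fewer cells with the transcript and less of it per cell cannot be told apart.

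The fall of PDGFRB was accompanied by falls of genes that mark fibroblasts and mural cells, the cells best known for this receptor. Of 10 such markers, 7 were lower in HuCCT1/CD90+ (against 9.52% of all genes and 15.0% of the better-read ones), none was higher, and their summed level was 50.8 to 77.6 RPM in HuCCT1/CD90- against 25.5 to 32.6 RPM in HuCCT1/CD90+. CSPG4, the pericyte proteoglycan NG2, fell from 7.92 ± 2.58 to 0.396 ± 0.347 RPM (limma, adjusted p = 0.0089) and DCN (decorin) was at least 20.3-fold lower (limma, adjusted p = 0.034), both no longer passing with the block (adjusted p = 0.07 and 0.086). Under the block, 2 of these 10 markers passed as lower, LUM (lumican) and the pericyte gene RGS5. Lower under the block were 1331 of all 20811 genes and 1239 of the 12062 better-read ones. RGS5, counted among the 7, and the muscle filament gene DES were at or under the floor in both lines. COL1A2 and COL3A1, also among the 7, were barely read, with 0.521 and 0.847 RPM in HuCCT1/CD90- and 0 reads in HuCCT1/CD90+, and COL1A1, with 13.5 and 14.2 RPM, had an adjusted p of 0.82 (limma). Of 5 endothelial markers 1 was lower, CDH5 (VE-cadherin), which fell from 16.6 ± 3.17 to 0.293 ± 0.118 RPM (limma, adjusted p = 0.0008), and KDR was at the floor in both lines. The summed level of the 5, 14.9 to 23.4 RPM against 1.29 to 1.86 RPM, was mostly CDH5 in HuCCT1/CD90-, while VWF had 0 and 0.297 RPM and TEK 0.262 and 0.364 RPM. PECAM1 had 2.19 and 0.527 RPM, with every HuCCT1/CD90+ library lower, and did not pass (limma, adjusted p = 0.14). Of 6 leukocyte and platelet markers 1 was higher, the lysosomal gene CD68, while PTPRC, CD3E and ITGA2B were at the floor in both lines, and the sum, 47.2 to 56.8 RPM against 85.6 to 102 RPM, was nearly all CD68 (50.8 and 92.2 RPM). Of 8 biliary and epithelial markers 6 were higher (against 9.41% of all genes and 14.4% of better-read ones), 4 of them also with the block, and none was lower, among them EPCAM, with 28.6 against 363 RPM, and CDH1 (E-cadherin), with 14.4 against 227 RPM, and with a sum of 8230 to 9330 RPM against 11200 to 12000 RPM. The marker lists were chosen with earlier results of these data known, so their shares are descriptive only. The part of these genes in the PDGFRB result was not tested.

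PDGFRA, the receptor chain that binds PDGF-A, PDGF-B and PDGF-C, was hardly read in either line. It had 0, 2 and 4 reads in HuCCT1/CD90- and 1, 0 and 0 reads in HuCCT1/CD90+. The means, 0.201 and 0.0357 RPM, were both under the floor, so no fold is given and a difference was not detectable at this depth (limma, adjusted p = 0.45).

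PDGFRL encodes a secreted protein with immunoglobulin-like domains that resembles the outer part of the PDGF receptors but has no kinase. It had 3.51, 3.75 and 4.56 RPM in HuCCT1/CD90- against 2.04, 0.815 and 2.82 RPM in HuCCT1/CD90+. All 3 HuCCT1/CD90+ libraries were lower, with replicate 2, at 7 reads, the lowest. The lines did not overlap for 4 of the 7 members, against 35.0% of all genes and 52.6% of those that averaged 1 RPM or more. The means were 3.94 ± 0.552 and 1.89 ± 1.01 RPM (SD, n = 3 each), and the difference did not pass (log2 fold change -0.83, standard error 0.31, 95% interval from -1.67 to 0.0038, adjusted p = 0.16 from limma). It passed on recovered reads with edgeR (adjusted p = 0.024 after filterByExpr and 0.011 without a filter) and in limma when the test was limited to the 12062 better-read genes (adjusted p = 0.017), but not with DESeq2 (adjusted p = 0.059).

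Kinase receptors related to the PDGF receptors were looked at next. Of 6 such genes, 0 passed in limma, also at an unadjusted p of 0.05, and 0 in edgeR and DESeq2, against 18.9% of all genes and 29.4% of better-read ones in limma. However, KIT, FLT3, FLT1, KDR and FLT4 were at the floor in both lines. These include KIT and KDR, which lie beside PDGFRA on chromosome 4. CSF1R, the colony-stimulating factor receptor gene directly beside PDGFRB on chromosome 5, was read weakly, with 0.727 ± 0.214 RPM in HuCCT1/CD90- against 1.11 ± 0.313 RPM in HuCCT1/CD90+ (adjusted p = 0.32 from limma).

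Among the ligands, PDGFB had the clearest rise. It encodes the B chain, which can bind either receptor chain, and is annotated on the minus strand of chromosome 22 (GRCh38), between 39223359 and 39244751. It had 103, 105 and 93.0 RPM in HuCCT1/CD90- against 170, 159 and 135 RPM in HuCCT1/CD90+, from 959 to 1588 reads a library. The lowest HuCCT1/CD90+ library was above the highest HuCCT1/CD90- library. The mean rose from 101 ± 6.66 to 155 ± 18.0 RPM (SD, n = 3 each), 1.54-fold, and the log2 fold change was 0.61 (standard error 0.11, 95% interval from 0.32 to 0.90, adjusted p = 0.026 from limma). It passed as well with the block (limma, adjusted p = 0.034) and on recovered reads with edgeR (adjusted p = 0.0018 after filterByExpr and 0.00059 without a filter) and DESeq2 (adjusted p = 0.00022). In limma it was close to the threshold. When any library other than HuCCT1/CD90+ replicate 3 was left out, the log2 fold change was 0.54 to 0.65 and the adjusted p 0.069 to 0.087 (limma), and without HuCCT1/CD90+ replicate 3 it was 0.71 with an adjusted p of 0.024.

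PDGFD, whose product binds PDGFRB homodimers, was near the floor in HuCCT1/CD90- and low in HuCCT1/CD90+. Its gene spans 103907186 to 104164379 of chromosome 11 (GRCh38), again on the minus strand. It had 1, 1 and 5 reads in HuCCT1/CD90- and 16, 11 and 9 reads in HuCCT1/CD90+, which are 0.095, 0.107 and 0.485 RPM against 1.72, 1.28 and 0.977 RPM. The lines did not overlap. The pooled reads, 7 and 36, gave a ratio of 5.73 with a 95% exact counting interval from 2.51 to 15.2. The log2 fold change on log2(RPM + 1) was 0.92 (standard error 0.19, 95% interval from 0.43 to 1.42, adjusted p = 0.036 from limma). The call was lost when the replicate number entered as a block (limma, adjusted p = 0.15) and when any library other than HuCCT1/CD90- replicate 3 was left out (log2 fold change 0.80 to 1.03, adjusted p 0.068 to 0.11, limma). Without HuCCT1/CD90- replicate 3 the log2 fold change was 1.07 and the adjusted p 0.042 (limma). With all libraries, edgeR without a filter and DESeq2 gave adjusted p-values of 0.0015 and 0.016. The unfiltered edgeR fit had an infinite prior, which ignores how far dispersions differ from gene to gene.

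PDGFC, a CUB-domain ligand that acts mainly on PDGFRA, had 48.0, 39.1 and 37.2 RPM in HuCCT1/CD90- against 60.0, 47.2 and 45.9 RPM in HuCCT1/CD90+. The lines overlapped, since the first HuCCT1/CD90- library was above 2 of the HuCCT1/CD90+ libraries. The means were 41.4 ± 5.77 and 51.0 ± 7.82 RPM (SD, n = 3 each). The log2 fold change was 0.29 (standard error 0.15, 95% interval from -0.12 to 0.71, adjusted p = 0.30 from limma). Between libraries of the same replicate number the difference hardly varied, at 0.32, 0.27 and 0.30 on the log2 scale for numbers 1, 2 and 3. With the number as a block PDGFC passed (limma, adjusted p = 0.022), so its call depends on the pairing.

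PDGFA, which encodes the A chain, specific to PDGFRA, had 21.4, 26.3 and 22.7 RPM in HuCCT1/CD90- against 27.8, 31.7 and 23.3 RPM in HuCCT1/CD90+. The lines overlapped. The means were 23.5 ± 2.54 and 27.6 ± 4.17 RPM (SD, n = 3 each). The log2 fold change was 0.22 (standard error 0.14, 95% interval from -0.16 to 0.60, adjusted p = 0.41 from limma). The differences between same-numbered libraries were 0.36, 0.26 and 0.04 on the log2 scale, less alike than those of PDGFC, and with the block the adjusted p was 0.26 (limma).

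**Figure D2:**
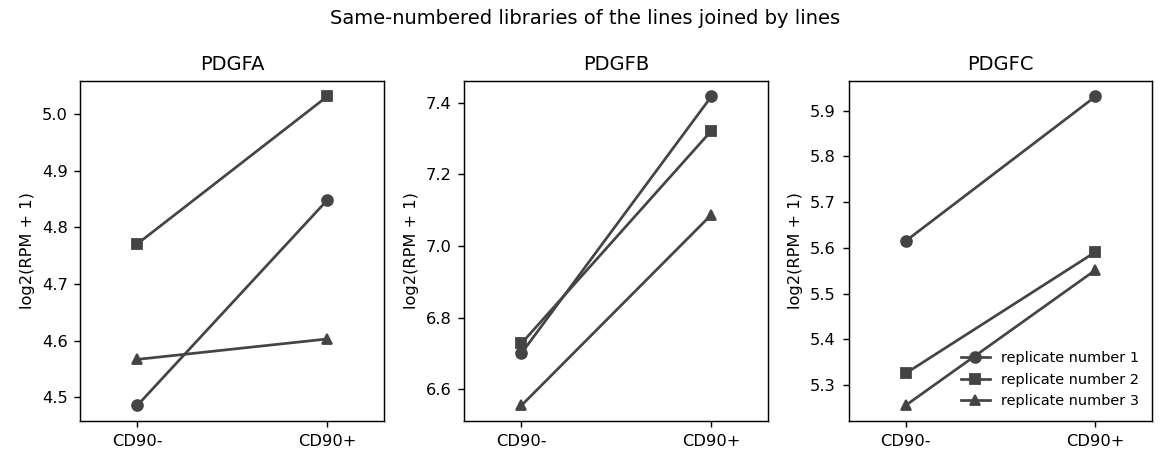
Values of PDGFA, PDGFB and PDGFC as log2(RPM + 1) (y axis, a separate scale in each panel, not from 0) in HuCCT1/CD90- and HuCCT1/CD90+, with lines joining libraries of the same replicate number. The 3 lines of PDGFC are nearly parallel, with differences of 0.27 to 0.32, whereas those of PDGFA range from 0.04 to 0.36.

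PDGFA and PDGFC lie in stretches of the genome where the median change of the neighbouring genes was above 0. Taken over the 50 closest genes that averaged 10 RPM or more, the median log2 fold change was 0.39 around PDGFA on chromosome 7 and 0.32 around PDGFC on chromosome 4. It was 0.42 around PDGFRA, also on chromosome 4, and 0.25 around PDGFD. Around PDGFB, PDGFRB and PDGFRL it was 0.09, 0.03 and 0.08. With this median divided out, the log2 fold change of PDGFA became -0.16 and that of PDGFC -0.02, while PDGFB stayed at 0.53 (limma, adjusted p = 0.042) and PDGFRB at -1.95 (limma, adjusted p = 0.0010). PDGFD then had a log2 fold change of 0.78 and an adjusted p of 0.055 (limma).

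**Figure D3:**
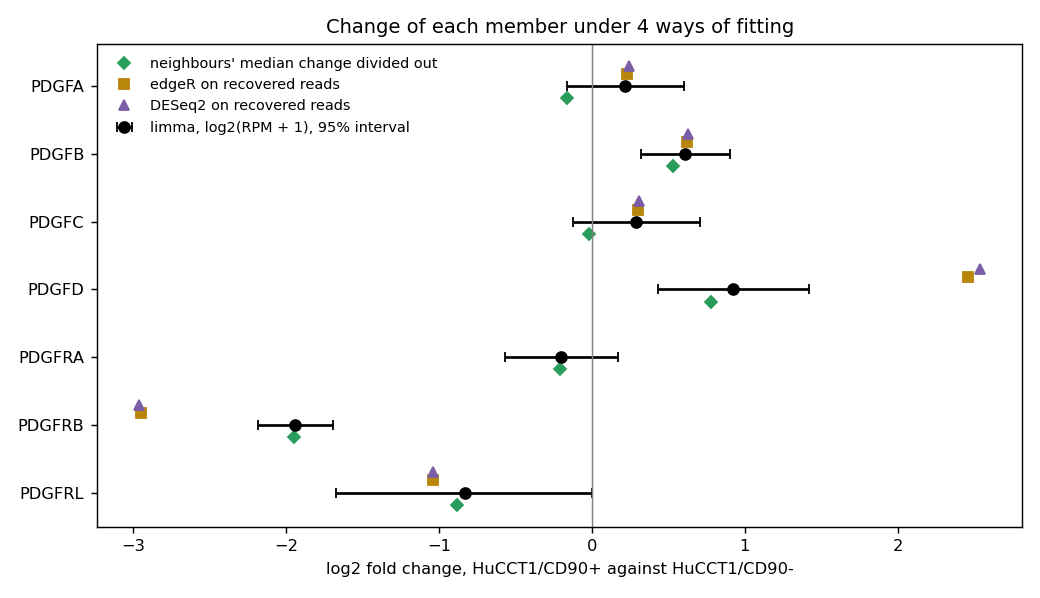
Log2 fold change (x axis) of HuCCT1/CD90+ against HuCCT1/CD90- for the 7 PDGF genes. Black points with bars give limma on log2(RPM + 1) with its 95% interval, and green diamonds the same with the median change of 50 neighbouring genes divided out. Squares and triangles give edgeR and DESeq2 on recovered reads. They are left out for PDGFRA because the means of both lines were under the floor. PDGFA and PDGFC move to -0.16 and -0.02 with neighbours divided out, and PDGFD and PDGFRB lie farther from 0 on reads than on log2(RPM + 1).

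The enzymes that activate the ligands were examined as a list of 7 genes, of which 2 rose, none fell and 5 did not pass. These 28.6% lie between the 18.9% called over all genes and the 29.4% over better-read ones. ST14, the gene of matriptase, a membrane protease known to release active PDGF-D, had 18.1, 17.0 and 12.9 RPM in HuCCT1/CD90- against 369, 369 and 383 RPM in HuCCT1/CD90+. It rose 23.3-fold (log2 fold change 4.47, standard error 0.13, adjusted p = 0.00043 from limma). PCSK6, the convertase PACE4, had 0, 0 and 1 reads in HuCCT1/CD90- and 188, 264 and 227 reads in HuCCT1/CD90+, at least 78.4-fold higher (limma, adjusted p = 0.00052). FURIN, the main convertase for the A and B chains, had 65.6 ± 11.6 and 56.1 ± 9.46 RPM (SD, n = 3 each; limma, adjusted p = 0.57). PLAT, the tissue plasminogen activator that cleaves PDGF-C, had 90.0 ± 29.5 and 69.3 ± 2.17 RPM (limma, adjusted p = 0.57). PLAU (urokinase), which can cleave PDGF-D, had 238 ± 50.1 and 328 ± 0.728 RPM (limma, adjusted p = 0.13). PCSK7 and PCSK5 did not pass either, PCSK5 with at most 4 reads in any library.

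Among 6 genes whose products bind the ligands or act with the receptors, 4 fell (66.7%, against 9.52% lower over all genes and 15.0% over better-read ones) and none rose, with a median log2 fold change of -1.10 beside 0.00 over all genes. SPARC, a matrix protein that binds PDGF-B, averaged 579 ± 27.2 RPM in HuCCT1/CD90- and had 0 reads in every HuCCT1/CD90+ library, which makes it at least 1660-fold lower (limma, adjusted p = 2.5e-06). LRP1, an endocytic receptor that associates with PDGFRB, had 75.3, 178 and 140 RPM in HuCCT1/CD90- against 8.04, 13.9 and 12.2 RPM in HuCCT1/CD90+. It fell 11.6-fold (log2 fold change -3.37, standard error 0.40, adjusted p = 0.0095 from limma). NRP1, a neuropilin described as a coreceptor for PDGF, fell 1.75-fold from 461 ± 39.9 to 263 ± 17.3 RPM (limma, adjusted p = 0.0074). NRP2 fell 2.74-fold (limma, adjusted p = 0.029, and 0.054 with the block). HSPG2 (perlecan) did not pass and A2M was at the floor in both lines.

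Of 25 genes for adaptors and effectors of the activated receptors, 2 rose, 3 fell and 20 did not pass, with a median log2 fold change of 0.14. The share that passed, 20.0%, was close to the 18.9% over all genes and below the 29.4% over better-read ones. RASA1, the Ras GTPase-activating protein that docks on PDGFRB, rose from 56.5 ± 5.48 to 203 ± 53.8 RPM (limma, adjusted p = 0.0088, and 0.052 with the block). GAB1, a docking protein, rose from 5.78 ± 2.24 to 18.7 ± 2.07 RPM (limma, adjusted p = 0.030, and 0.080 with the block). PIK3R1, the regulatory subunit of PI3-kinase, fell from 39.4 ± 7.09 to 22.1 ± 0.658 RPM (limma, adjusted p = 0.028, and 0.067 with the block). Under the block 1 of the 5, SHC1, passed. This adaptor gene fell from 445 ± 47.3 to 293 ± 28.8 RPM (limma, adjusted p = 0.029, and 0.018 with the block), and the Src family kinase gene YES1 fell as well (limma, adjusted p = 0.024, and 0.084 with the block).

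Of 9 genes that restrain the receptors, 1 fell and 8 did not pass, a share of 11.1% against 18.9% of all genes and 29.4% of better-read ones. PTPRJ, a receptor phosphatase that dephosphorylates PDGFRB, had 185, 190 and 183 RPM in HuCCT1/CD90- against 74.8, 94.9 and 83.0 RPM in HuCCT1/CD90+, a 2.21-fold fall (log2 fold change -1.14, standard error 0.09, adjusted p = 0.0036 from limma). The ubiquitin ligase gene CBL had 70.5 ± 14.1 and 68.3 ± 12.8 RPM.

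Of 15 genes known to be induced early by PDGF in responsive cells, 4 fell, 1 rose and 10 did not pass, with a median log2 fold change of -0.20. The share called was 33.3%, above the 18.9% of all genes and near the 29.4% of genes that averaged 1 RPM or more. CCL2, the chemokine first found as a PDGF-induced gene, fell 19.6-fold from 36.3 ± 8.0 to 1.85 ± 0.473 RPM (limma, adjusted p = 0.0016). The hyaluronan synthase gene HAS2 fell from 30, 38 and 65 reads to 2, 0 and 4 reads (limma, adjusted p = 0.014). The transcription factor genes EGR1 and JUN fell 2.41-fold and 2.69-fold (limma, adjusted p = 0.011 and 0.028). JUN was weakly read, with 21, 12 and 18 reads in HuCCT1/CD90- and 6, 4 and 7 reads in HuCCT1/CD90+. CCN1, listed under its older symbol CYR61, rose from 330 ± 16.2 to 625 ± 26.0 RPM (limma, adjusted p = 0.0014). The Fos gene FOS itself had 3.91 ± 0.478 and 3.02 ± 0.119 RPM and did not pass (limma, adjusted p = 0.086), and MYC, with 103 ± 16.4 against 154 ± 22.4 RPM, did not pass either, but did with the block (limma, adjusted p = 0.086, and 0.037 with the block). All of these genes also answer other signals.

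Over the 68 pathway genes together, 5 rose and 12 fell, and their median log2 fold change was 0.00, as over all genes. The 17 are 25.0% of the 68, between the 18.9% called over all genes and the 29.4% over those that averaged 1 RPM or more, so the count does not set these genes apart. When 1 library was left out, 9 of these 17 passed each time and all 17 kept their direction, the 9 being ST14, PCSK6, SPARC, LRP1, NRP1, RASA1, PTPRJ, CCL2 and CYR61. Of the 17, 11 passed without HuCCT1/CD90- replicate 3, HuCCT1/CD90+ replicate 1 or HuCCT1/CD90+ replicate 2, and 10 without HuCCT1/CD90+ replicate 3. Of the other 8, EGR1 was lost without HuCCT1/CD90+ replicate 3 (limma, adjusted p = 0.051), and HAS2 without HuCCT1/CD90- replicate 2, HuCCT1/CD90+ replicate 1 or HuCCT1/CD90+ replicate 2 (limma, adjusted p up to 0.055). GAB1 passed in 2 of the 6 fits that each leave out a library, and NRP2, SHC1, PIK3R1, YES1 and JUN in 1 of 6, with adjusted p-values up to 0.11 (limma). With the block, 5 of the 17 did not pass, namely NRP2, RASA1, GAB1, PIK3R1 and YES1.

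**Figure D4:**
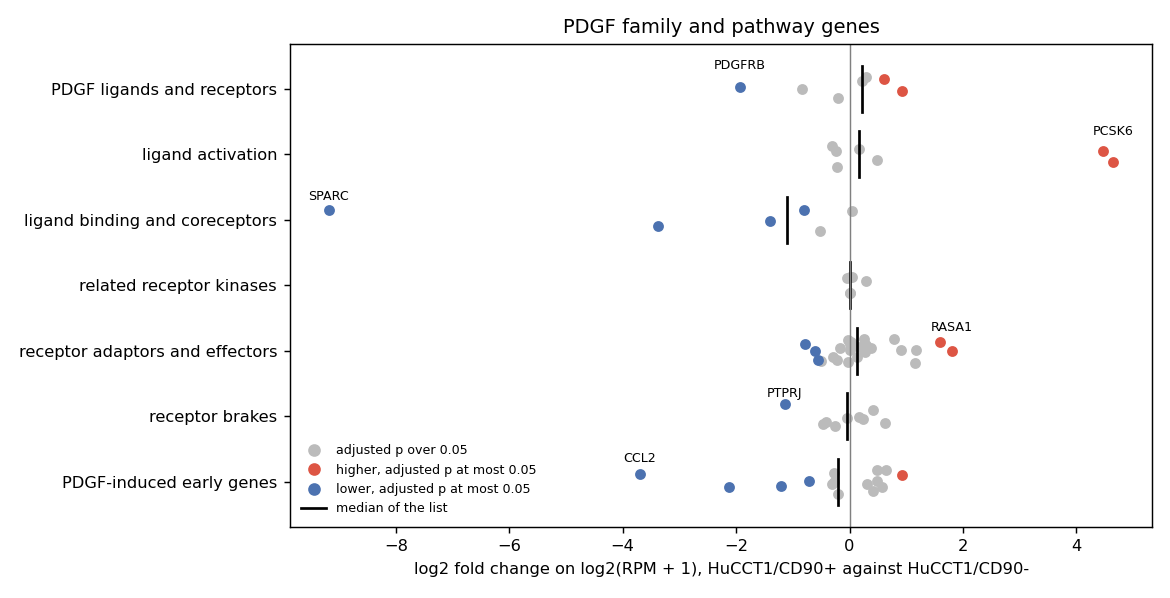
Log2 fold change on log2(RPM + 1) (x axis) for the 7 PDGF genes and the 6 lists of pathway genes, 1 point a gene, red where higher and blue where lower at an adjusted p of at most 0.05 (limma), grey otherwise, with a black bar at the median of the list and the largest passing change named. The list of ligand-binding proteins and coreceptors has its median at -1.10, the other pathway lists between -0.20 and 0.16.

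The genes whose values moved most like those of each member were found among 12061 other genes that averaged 1 RPM or more, by the root mean square difference of log2(RPM + 1) values centred on the mean of each gene over the 6 libraries. For PDGFRB these were AP1S2, WDR35 and EFEMP1, with differences of 0.090, 0.098 and 0.103 on the log2 scale. AP1S2 went from 74.5 to 17.6 RPM and EFEMP1, the matrix protein fibulin-3, from 221 to 56.6 RPM. The scale understates the change of the weakly read PDGFRB. In RPM it fell 7.88-fold, while AP1S2, WDR35 and EFEMP1 fell 4.23-fold, 3.75-fold and 3.9-fold. For PDGFB, CCM2 and ATP5S were at 0.054 and 0.057. CCM2 had 58.4, 60.2 and 51.3 RPM in HuCCT1/CD90- against 96.1, 98.9 and 75.4 RPM in HuCCT1/CD90+, in both lines with the third library lowest, as for PDGFB. For PDGFA they were INTS4, REPIN1 and ZBTB7A (0.045 to 0.050), for PDGFC LOC100289561, MICA and CRK (0.046 to 0.048), and for PDGFRL RPL23AP32, PFKFB2 and ZNF302 (0.116 to 0.166). RPL23AP32 is a ribosomal protein pseudogene, whose reads could be shared with near-identical copies. PDGFD and PDGFRA were below this mean and were left out.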

How the data were processed

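The authors made the libraries with the Ion AmpliSeq Transcriptome panel from total RNA, 1 amplicon per gene, read them on an Ion GeneStudio S5 Prime, obtained amplicon counts from the ampliSeqRNA plugin and deposited them as RPM values, scaled to the reads on genes in each library. The submitters' processing notes name hg19 and the Transcriptome Analysis Console. The table holds no coordinates, so positions given here are those of GRCh38. The deposited RPM values step by the worth of 1 read (100% of values within 0.001 RPM), which let whole reads be recovered. No 2 libraries agreed within sampling noise.

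Alternatives changed the offset, the filter on low values, the scaling and the moderation, left out each library, or divided out the median change of neighbouring genes. Groups came from the sample titles. Differences were tested with limma 3.58.1 in R 4.3.3 (lmFit and eBayes, two-sided) on log2(RPM + 1) over all 20811 genes, with Benjamini-Hochberg adjustment and a threshold of 0.05. edgeR 4.0.16 and DESeq2 1.42.0 were run on recovered reads. The fits were tested on simulated data. Deviations from the line means correlated with r = 0.21, 0.32 and 0.18 between libraries with the same replicate number (-0.29 to 0.07 otherwise). On this evidence only, same-numbered libraries were treated as pairs in an alternative fit with the number as a block. The labels do not say what a number marks, and the main limma fit did not pair the libraries.

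A fold against a line with at most 3 reads in every library is a lower bound against that floor. The members, pathway lists and markers were chosen with earlier results of these data known. All members are named, with at most 4 passing genes of each pathway list, by size of change, and the 3 genes most like each member that averaged 1 RPM or more, of which 1 is not reported here. YES1 and JUN, which passed but lie outside that limit, and the marker genes and list members named as not passing, were chosen after their values were seen. Gene order came from RefSeq (GRCh38.p14), as did promoters, which matched 4 of the 7 members.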

Additional observations from a re-analysis of the deposited data

How the results depend on the processing

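PDGFRB kept its direction and its call in all 18 alternatives, with log2 fold changes of -2.00 to -1.87 when 1 library was left out. PDGFRA, with a few reads in all, passed in none of its 16 (-0.33 to -0.09 with 1 library left out). Dividing out the neighbours' median change turned PDGFA to -0.16 and PDGFC to -0.02, neither passing, and left PDGFD at 0.78 without its call. The replicate block kept PDGFC at 0.29, now passing, kept PDGFD at 0.92, no longer passing, and changed no other member's call. PDGFD was also lost with an offset of 0.1 RPM (log2 fold change 2.28, adjusted p = 0.052, limma), and gave no value under the filters (averages of 1 or 10 RPM or more, and filterByExpr). PDGFRL passed with edgeR (-1.04 with and without a filter) and over genes that averaged 1 RPM or more (-0.83). With 1 library left out, log2 fold changes were 0.54 to 0.71 for PDGFB, 0.80 to 1.07 for PDGFD, 0.12 to 0.33 for PDGFA, 0.17 to 0.40 for PDGFC and -1.07 to -0.53 for PDGFRL. The cause was not tested.

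The number of genes called, 3939, was 2729 with the block, 2197 to 2932 with 1 library left out and 5735 with edgeR without a filter. That fit had an infinite prior, which ignores how far dispersions differ from gene to gene. Of the 68 pathway genes, 17 were called. The number was 26 over genes that averaged 1 RPM or more and 31 with edgeR (with and without filterByExpr), both including all 17, and 28 with DESeq2, including 16 of them. With 1 library left out it was 11 to 17, including 10 to 13 of the 17, and the fit without HuCCT1/CD90- replicate 1 called 13 of them and 4 others. Depth limits PDGFRA, with 6 and 1 reads in the lines, PDGFD in HuCCT1/CD90- (7 reads) and PDGFRB in HuCCT1/CD90+ (19 reads).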
